A study of Mus musculus with 120 samples.

Results

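The genes described here are 10 named genes of the striatum, the main input nucleus of the basal ganglia, out of 55573 genes in the deposited count tables. They are 5 genes that mark direct pathway neurons (Drd1, Tac1, Pdyn, Chrm4 and Isl1) and 5 that mark indirect pathway neurons (Drd2, Adora2a, Penk, Gpr6 and Sp9). They are named as known markers of these neurons and were matched by symbol, each to 1 gene. The set was chosen with earlier results of these data known. The study is of spinocerebellar ataxia type 1, a disease caused by a lengthened CAG repeat in ATXN1, modelled in C57BL/6J knock-in mice of both sexes. WT mice carry no changed allele. The 175Q mice (Atxn1 175Q/2Q) carry 1 Atxn1 allele with a long CAG repeat beside a normal mouse allele. The 175QK772T mice (Atxn1 175QK772T/2Q) carry the same long repeat with a lysine replaced by threonine in the signal that takes ataxin-1 into the nucleus. The changed alleles sit at the gene's own locus, so no tissue or cell type was singled out by a promoter. Polyadenylated RNA was sequenced from 5 regions of each of 24 mice, with 4 mice per genotype at 10 weeks and 4 others per genotype at 26 weeks, giving 120 libraries. The regions were striatum, cortex, hippocampus, cerebellum and, at 10 weeks, brainstem or, at 26 weeks, medulla.

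Most neurons of the striatum are GABAergic spiny projection neurons of 2 kinds. Those of the direct pathway carry the D1 dopamine receptor and make substance P and dynorphin, project to the output nuclei of the basal ganglia and are taught as promoting movement. Those of the indirect pathway carry the D2 dopamine receptor and the adenosine receptor Adora2a, make enkephalin, project to the external globus pallidus and are taught as restraining it. Dopamine raises cyclic AMP in the former and lowers it in the latter.

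The striatal libraries held 77061358 to 93146278 counts assigned to genes at 10 weeks and 28650608 to 57281437 at 26 weeks. The 2 ages were prepared and sequenced as separate batches, so age and batch cannot be told apart. The tissue was bulk, so fewer cells of a type and less RNA per cell cannot be told apart. Summed levels of 8 markers of cortical glutamatergic neurons, such as Slc17a7, differed between striatal libraries, from 99.5 to 458 CPM (counts relative to the library total, scaled by TMM factors within a region and age) at 10 weeks and from 92 to 1060 at 26 weeks. At 26 weeks the highest sum was in WT replicate 3, which had the lowest value of all 10 members among the WT mice, and the lowest was in 175QK772T replicate 4, which had the highest value of its group for all members but Pdyn and Chrm4. Outside the striatum, the cortex library of WT replicate 1 at 26 weeks stood apart: its cortical marker sum was 492 CPM against 1680 to 1690 in the other WT cortices, and its sum of thalamic and septal markers was 277 against 69.5 to 79.9. In 26-week cerebellum, mitochondrial genes took 13.5% of the counts of 175Q replicate 4 and 11.5% of those of 175QK772T replicate 2, where the remaining 10 cerebella had 3.89% to 5.01%. Results that rest on these libraries are given with and without them. The groups follow the genotype labels, which give the mutant alleles as 175Q at both ages, but the 40 mutant columns of the 26-week table are named with a shorter repeat length than the labels give, so whether the mice of both ages carried the same repeat length is not known here.

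Promoter sequences of 8 of the 10 members were found in RefSeq, on the GRCm38.p6 build, as 10 windows that run from 250 bases before to 50 bases after a start site. The 4 printed here are those of receptors of each pathway and of the substance P precursor, because these genes moved together at 26 weeks and Tac1 did not at 10 weeks. They were searched on both strands for the cyclic AMP response element TGACGTCA, for its short form TGACG, which lies within the full element, and for the GC box GGGCGG. Capitals mark the matches, on either strand.
Gpr6 promoter, chr10:41072241-41072540, minus strand: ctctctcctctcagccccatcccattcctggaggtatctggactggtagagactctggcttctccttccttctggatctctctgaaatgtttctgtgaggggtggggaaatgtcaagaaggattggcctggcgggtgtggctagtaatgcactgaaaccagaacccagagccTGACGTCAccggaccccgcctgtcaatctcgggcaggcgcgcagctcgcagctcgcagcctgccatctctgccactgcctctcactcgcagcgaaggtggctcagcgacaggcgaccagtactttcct
Drd2 promoter, chr9:49340153-49340452, plus strand: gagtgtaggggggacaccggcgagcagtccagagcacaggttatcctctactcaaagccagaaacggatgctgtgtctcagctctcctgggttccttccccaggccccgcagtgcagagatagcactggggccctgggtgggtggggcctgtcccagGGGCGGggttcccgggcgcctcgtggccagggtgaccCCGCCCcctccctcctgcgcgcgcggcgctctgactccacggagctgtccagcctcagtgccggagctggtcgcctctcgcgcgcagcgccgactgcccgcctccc
Drd1 promoter, the upstream of its 2 start sites, chr13:54055609-54055908, minus strand: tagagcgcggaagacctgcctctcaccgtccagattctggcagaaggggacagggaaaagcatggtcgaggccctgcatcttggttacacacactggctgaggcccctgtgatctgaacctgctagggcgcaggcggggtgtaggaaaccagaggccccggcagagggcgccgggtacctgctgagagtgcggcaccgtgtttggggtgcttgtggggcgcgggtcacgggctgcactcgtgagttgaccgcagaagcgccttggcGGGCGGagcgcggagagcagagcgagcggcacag
Tac1 promoter, chr6:7554811-7555110, plus strand: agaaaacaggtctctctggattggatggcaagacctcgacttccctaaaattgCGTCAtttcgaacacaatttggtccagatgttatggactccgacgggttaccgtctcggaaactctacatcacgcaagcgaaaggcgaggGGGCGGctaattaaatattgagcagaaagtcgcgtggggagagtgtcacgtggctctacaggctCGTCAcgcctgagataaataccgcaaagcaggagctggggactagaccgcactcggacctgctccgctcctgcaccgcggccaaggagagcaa
The full element was in 1 of the 10 member windows, that of Gpr6, beginning at position -78 from the start site, and in 1.79% of 32851 RefSeq promoters of the same length. The short form was in 3 member windows, of Tac1, Isl1 and Gpr6, and in 20.8% of all promoters. The GC box was in 6 member windows, both of Drd1 and those of Tac1, Chrm4, Drd2 and Sp9, and in 35.7% of all promoters. These matches describe letters only.

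In WT striatum the members covered a wide range of levels. Per length, as mean TPM (scaled by gene length and library total) at 10 weeks, Penk stood at 2970, Adora2a at 425, Drd2 at 373, Drd1 at 266, Tac1 at 178, Gpr6 at 153, Chrm4 at 147, Pdyn at 127, Sp9 at 15.7 and Isl1 at 13.6. At 26 weeks the WT means were 2960 for Penk, 365 for Adora2a, 357 for Drd2, 269 for Drd1, 199 for Tac1, 147 for Gpr6, 138 for Chrm4, 124 for Pdyn, 14.1 for Isl1 and 9.93 for Sp9. The enkephalin precursor was therefore the most abundant member and the 2 transcription factors the least, at both ages. The Chrm4 model spans 1440 bases, a multiple of 3, so it may leave out untranslated parts. Reads from such parts would then be missing from its count, and its CPM may be too low. Exons of Penk overlap those of A830012C17Rik and exons of Sp9 those of Cir1, both on the opposite strand, and whether counting at 26 weeks used strand is not given in the sources used here, so reads of these pairs may not be told apart.

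At 10 weeks, 7 of the 10 members were lower in 175Q than in WT striatum, at an adjusted p below 0.05 from edgeR's quasi-likelihood test with Benjamini-Hochberg adjustment over all genes tested. RNA of all the dopamine, adenosine, muscarinic and orphan receptors of the set fell. The largest falls were close in size, with the enkephalin precursor Penk at 23.9% and Adora2a at 24.3% of the WT mean. RNA of the substance P precursor Tac1 did not pass the test. Of the direct members 3 of 5 were called lower and of the indirect members 4 of 5, where 16.6% of all 20998 genes tested were called lower. The median log2 fold change was -0.44 over the direct members and -1.60 over the indirect members, against 0.01 over all genes.

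Drd1, at chr13:54051183-54055705, encodes the D1 receptor. It stood at 273, 289, 313 and 212 CPM in the WT striata and at 107, 102, 95.7 and 112 in the 175Q striata. The groups did not overlap, and the log2 fold change was -1.38 ± 0.12 (SE, 4 mice per group; adjusted p = 1.68e-06). The gene lies 8.09 Mb from Atxn1, whose allele was changed, on the same chromosome. Chrm4, at chr2:91927249-91928688, encodes the M4 muscarinic receptor that opposes D1 signalling in the same neurons. Its values were 54.6, 65.3, 64.6 and 53.5 CPM in WT and 19.9, 17.9, 18.7 and 19.2 in 175Q. Here too every 175Q mouse lay below every WT mouse, with a log2 fold change of -1.65 ± 0.10 (adjusted p = 8.24e-08).

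The peptide precursors of the direct pathway were less affected. Pdyn, at chr2:129686565-129699844, encodes prodynorphin, the source of dynorphin. It was at 105, 113, 97.9 and 95.2 CPM in WT and at 82.1, 83.6, 71.4 and 66.2 in 175Q. The groups did not overlap, but the fall was small, -0.44 ± 0.11 on the log2 scale (adjusted p = 0.00683). Tac1, at chr6:7554879-7565834, encodes the precursor of substance P. Its WT values of 172, 179, 192 and 138 CPM overlapped the 175Q values of 193, 183, 173 and 190.5, and the log2 difference of 0.12 ± 0.10 did not pass the test (adjusted p = 0.397). Isl1, 70.3 Mb from Atxn1 at chr13:116298281-116309689, encodes a LIM homeodomain factor of the direct pathway lineage that cholinergic interneurons also express. All 175Q values, 17.1 to 19.95 CPM, lay above the WT values, 14.4 to 15.9, and the log2 difference of 0.30 ± 0.11 fell just short of the threshold (adjusted p = 0.0503). DESeq2 called it (adjusted p = 0.0272), as did edgeR without 175Q replicate 3 or 175QK772T replicate 3 or 4 (adjusted p from 0.00719 to 0.0353).

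Among the indirect members, Drd2, at chr9:49340627-49408177, encodes the D2 receptor. It was at 257, 277, 322 and 216 CPM in WT and at 89.5, 85.7, 87.9 and 90.04 in 175Q. The 175Q mice were tightly grouped below all WT mice, and the log2 fold change was -1.60 ± 0.10 (adjusted p = 1.64e-07). Adora2a, at chr10:75316877-75334784, encodes an adenosine receptor that raises cyclic AMP in these neurons. Its values were 338, 402, 406 and 320.1 CPM in WT and 93.9, 76.8, 89.6 and 96.1 in 175Q. With no overlap, it fell by 2.04 ± 0.10 on the log2 scale (adjusted p = 2.49e-08). Penk, at chr4:4133531-4138819, encodes proenkephalin. It was at 1377, 1455, 1518 and 1112 CPM in WT and at 345, 334, 310.3 and 316 in 175Q, so that the 175Q mean was 23.9% of the WT mean. Its log2 fold change of -2.07 ± 0.13 (adjusted p = 1.13e-07) was the largest in size of the 10 members at this age, close to that of Adora2a. Gpr6, at chr10:41069977-41072285, encodes a receptor that signals through the stimulatory G protein. Its range was 62.1 to 87.1 CPM in WT and 25.8 to 32.3 in 175Q, with a log2 fold change of -1.42 ± 0.13 (adjusted p = 3.46e-06). Sp9, at chr2:73271925-73284706, encodes a zinc finger factor of the indirect pathway lineage. Its ranges of 20.3 to 24.9 CPM in WT and 20.02 to 22.4 in 175Q overlapped, and the log2 difference of -0.07 ± 0.10 did not pass the test (adjusted p = 0.636).

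**Figure D1:**
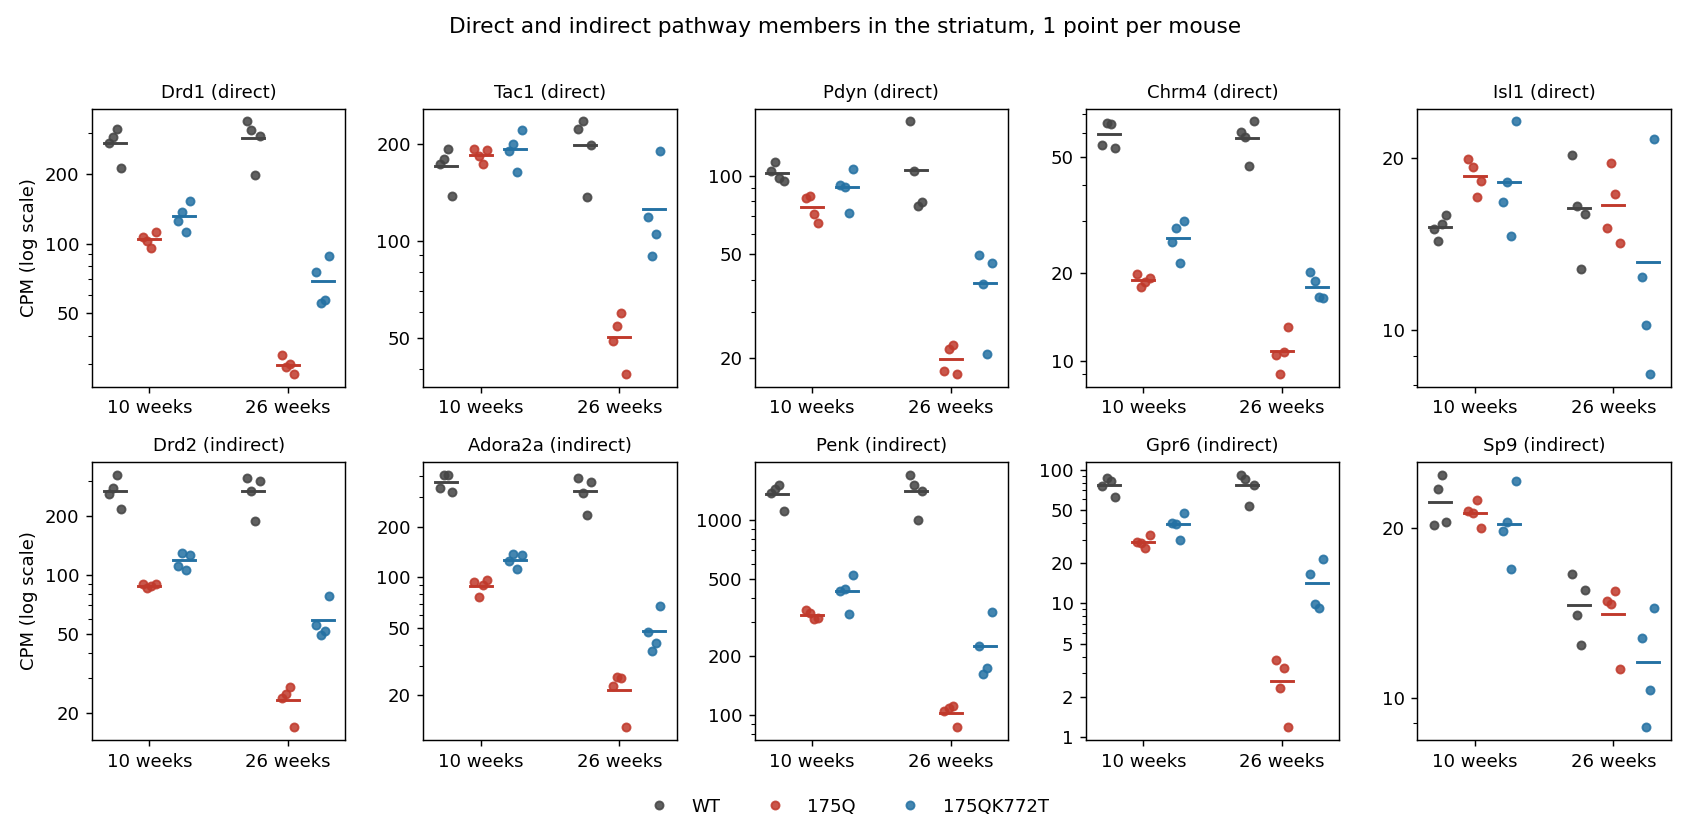
Level of each member in every striatal library, in CPM on a log axis, with 1 point per mouse, 1 bar per group mean and the direct members above the indirect ones. At 10 weeks Drd1, Pdyn, Chrm4, Drd2, Adora2a, Penk and Gpr6 of the 175Q mice lay below all WT mice, and at 26 weeks Tac1 did so as well, while Isl1 and Sp9 overlapped at 26 weeks.

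In the 175QK772T striatum at 10 weeks, 6 members were lower than in WT: 2 of 5 direct members, Drd1 and Chrm4, and 4 of 5 indirect members, Drd2, Adora2a, Penk and Gpr6, where 10.3% of all genes were called lower. Drd1 was at 125, 137, 112 and 153 CPM, below every WT mouse, with a log2 fold change against WT of -1.04 ± 0.12 (adjusted p = 4.73e-05). Penk was at 433, 443, 332 and 522 CPM, also below every WT mouse, with a log2 fold change of -1.66 ± 0.12 (adjusted p = 2.35e-06). The indirect receptors were likewise below all WT mice. The log2 fold changes were -1.19 ± 0.10 for Drd2 (adjusted p = 6.17e-06), -1.51 ± 0.10 for Adora2a (adjusted p = 6.31e-07), -0.96 ± 0.13 for Gpr6 (adjusted p = 0.00022) and, of the direct pathway, -1.16 ± 0.10 for Chrm4 (adjusted p = 4.69e-06). Tac1 (0.18 ± 0.10, adjusted p = 0.249), Pdyn (-0.19 ± 0.11, adjusted p = 0.263), Isl1 (0.28 ± 0.11, adjusted p = 0.1) and Sp9 (-0.11 ± 0.10, adjusted p = 0.453) did not pass the test.

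Set against 175Q mice of the same age, 2 members were higher in 175QK772T striatum, 1 direct and 1 indirect, where 0.557% of all genes were called higher. Adora2a was at 124, 137, 113 and 136 CPM, above every 175Q mouse, with a log2 difference of 0.53 ± 0.09 (adjusted p = 0.0286). Chrm4 was at 25.5, 28.6, 21.7 and 30.01 CPM, again above every 175Q mouse, with a log2 difference of 0.50 ± 0.10 (adjusted p = 0.0398). Of the others, 5 had log2 differences from 0.25 to 0.46 that did not pass (Drd1, Pdyn, Drd2, Penk and Gpr6, adjusted p from 0.0945 to 0.334), and Tac1, Isl1 and Sp9 lay between -0.05 and 0.06. Both calls were close to the threshold. That of Adora2a was lost, with adjusted p up to 0.106, without any of WT replicate 1, 175QK772T replicates 1, 2 and 4 or 175Q replicates 1, 2 and 3, and that of Chrm4, with adjusted p up to 0.135, without any library except WT replicates 3 and 4 and 175QK772T replicate 3. DESeq2 called 5 members here, with Drd2 (0.42), Penk (0.41) and Gpr6 (0.47) besides these. The shares of all genes called, here and below, are those of the edgeR fits with every library. Counts of members from other fits have no such share beside them.

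At 26 weeks 8 of the 10 members were lower in 175Q striatum than in WT, 4 of 5 in each pathway, where 22.6% of all 19692 genes tested were called lower. Tac1 was now among them, and the falls ran from 1.96 on the log2 scale for Tac1 to 4.89 for Gpr6. The median log2 fold change was -2.39 over the direct and -3.78 over the indirect members, against -0.004 over all genes. Isl1 and Sp9 did not pass the test. Mitochondrial genes took 4.89% to 5.5% of the counts in these 175Q libraries, below the 6.17% to 7.96% of the WT libraries, with 5.65% to 6.66% in 175QK772T. The part of this difference in the members' changes was not tested.

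Among the direct members at 26 weeks, Drd1 was at 338, 309.5, 199 and 293 CPM in WT and at 32.9, 29.3, 30.1 and 27.3 in 175Q. The 175Q mean was 10.5% of the WT mean, and the log2 fold change was -3.25 ± 0.18 (adjusted p = 4.62e-08). Tac1 was at 222, 235, 137 and 198 CPM in WT and at 48.7, 54.3, 59.7 and 38.7 in 175Q. No 175Q mouse reached the lowest WT mouse, and the log2 fold change was -1.96 ± 0.22 (adjusted p = 1.42e-05). Pdyn was at 162, 104, 76.8 and 79.2 CPM in WT and at 17.9, 21.7, 22.6 and 17.4 in 175Q. It varied most among the WT mice, and its log2 fold change was -2.39 ± 0.27 (adjusted p = 1.72e-05). Chrm4 ranged from 46.5 to 66.04 CPM in WT and from 9.04 to 13.1 in 175Q, with a log2 fold change of -2.43 ± 0.13 (adjusted p = 3.93e-08). Isl1 ranged from 12.8 to 20.2 CPM in WT and from 14.2 to 19.7 in 175Q, and the log2 difference of 0.01 ± 0.24 did not pass the test (adjusted p = 0.972).

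Among the indirect members, Gpr6 changed most. It was at 91.6, 85.04, 53.3 and 77.1 CPM in WT and at 3.75, 2.34, 3.27 and 1.18 in 175Q. The 175Q mean was 3.43% of the WT mean, and the log2 fold change was -4.89 ± 0.35 (adjusted p = 4.65e-07). Penk was at 1718, 1520, 1001 and 1409 CPM in WT and at 105, 109, 110.4 and 86.1 in 175Q. Its log2 fold change was -3.78 ± 0.23 (adjusted p = 1.06e-07), so that enkephalin precursor RNA stood at 7.26% of the WT mean. Adora2a was at 386, 316, 234 and 370 CPM in WT and at 22.6, 25.6, 25.2 and 12.9 in 175Q, with a log2 fold change of -3.93 ± 0.24 (adjusted p = 1.19e-07). Drd2 was at 309, 267, 189 and 298 CPM in WT and at 23.7, 24.9, 27.04 and 16.8 in 175Q, with a log2 fold change of -3.52 ± 0.19 (adjusted p = 4.21e-08). None of these groups overlapped, and 175Q replicate 4 was the lowest of its group for all 4 receptors and peptides of the indirect pathway. Sp9 ranged from 12.4 to 16.6 CPM in WT and from 11.3 to 15.5 in 175Q, and the log2 difference of -0.06 ± 0.15 did not pass the test (adjusted p = 0.772).

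In 175QK772T striatum at 26 weeks, 8 members, 4 in each pathway, were lower than in WT, where 12.4% of all genes were called lower, and 8, 4 in each pathway, were higher than in 175Q, where 7.28% of all genes were called higher. Both comparisons share the 175QK772T mice, and both comparisons with WT share the WT mice, so the values are set side by side. Drd1 was at 75.5, 55.4, 57.1 and 88.1 CPM, between the other genotypes with no overlap, and its log2 fold change was -2.04 ± 0.17 against WT (adjusted p = 6.33e-06) and 1.21 ± 0.17 against 175Q (adjusted p = 0.000857). Gpr6 was at 16.5, 9.84, 9.21 and 21.5 CPM, with log2 fold changes of -2.42 ± 0.30 against WT (adjusted p = 0.000132) and 2.48 ± 0.34 against 175Q (adjusted p = 0.000778). The Gpr6 mean was 18.6% of the WT mean in 175QK772T where it was 3.43% in 175Q. Penk was at 227, 161, 175 and 338 CPM, all above every 175Q mouse, with log2 fold changes of -2.66 ± 0.22 against WT (adjusted p = 6e-06) and 1.13 ± 0.21 against 175Q (adjusted p = 0.00469).

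Tac1 was the member nearest to WT among those called. Its 175QK772T values of 118, 89.8, 105 and 190.2 CPM overlapped the WT values, and the log2 fold change of -0.66 ± 0.21 passed only narrowly (adjusted p = 0.0365), while against 175Q it was 1.30 ± 0.21 (adjusted p = 0.00229). Drd2 (-2.18 ± 0.18 against WT, 1.35 ± 0.18 against 175Q), Adora2a (-2.77 ± 0.23 and 1.16 ± 0.22), Chrm4 (-1.70 ± 0.12 and 0.73 ± 0.13) and Pdyn (-1.44 ± 0.26 and 0.96 ± 0.26) also passed both tests, with Pdyn of 1 175QK772T mouse, at 20.8 CPM, inside the 175Q range. Isl1 (-0.32 ± 0.24 against WT, adjusted p = 0.389) and Sp9 (-0.34 ± 0.15, adjusted p = 0.132) did not pass either test. The Tac1 call against WT was lost without WT replicate 1, 2 or 4, 175QK772T replicate 1, 2 or 3 or 175Q replicate 2, with adjusted p up to 0.111, and the Pdyn call against 175Q without 175QK772T replicate 1, 2 or 4 or any 175Q replicate, with adjusted p up to 0.093. When the striatal libraries of highest and lowest cortical marker sum were left out, a check chosen after the data were seen, all 8 members kept their direction and call in the 3 comparisons. Isl1 then also passed, lower in 175QK772T than in WT (-0.81, adjusted p = 0.00375) and than in 175Q (-0.71, adjusted p = 0.00864), as did Sp9 against WT (-0.53, adjusted p = 0.029).

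**Figure D2:**
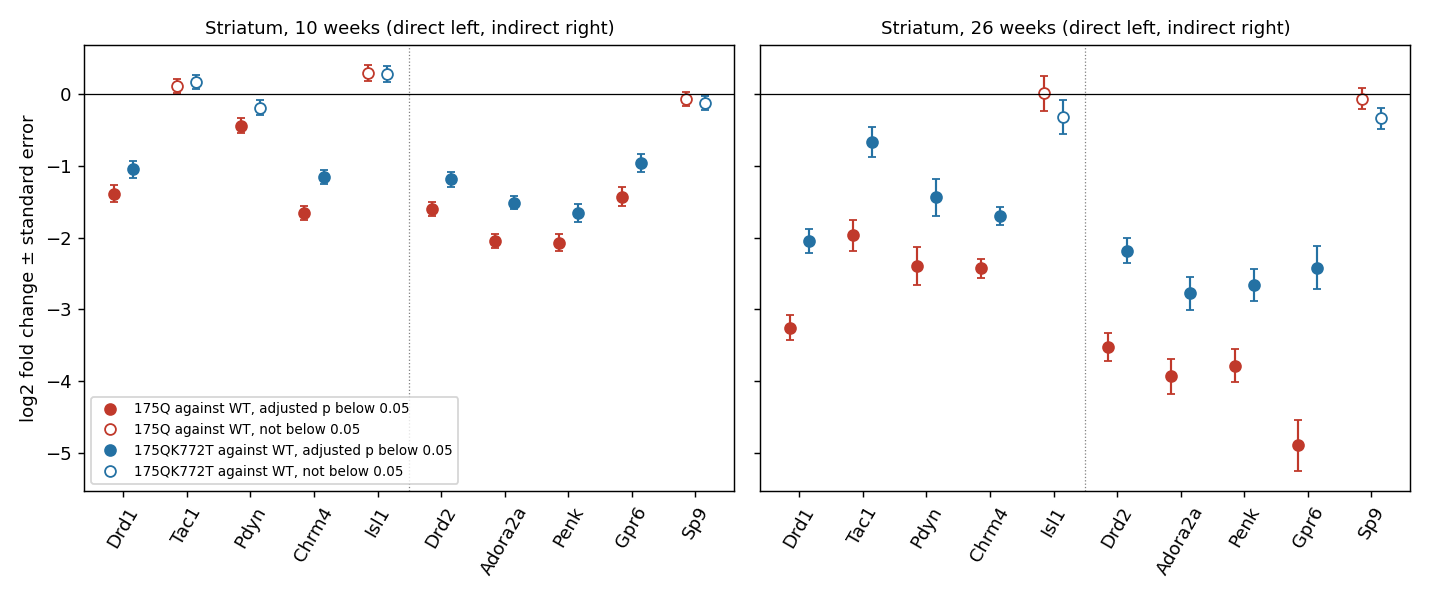
Log2 fold change against WT in the striatum for each member, with its standard error, at 10 weeks (left) and 26 weeks (right). Filled points have an adjusted p below 0.05. At 26 weeks the falls in 175Q run from 1.96 for Tac1 to 4.89 for Gpr6, and Isl1 and Sp9 lie near 0.

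The 175Q effect differed between the ages for 8 of the 10 members in an interaction test, each with a larger fall at 26 weeks, where 5.14% of all genes were called in that direction. Age cannot be told apart here from the count table, the batch of mice or the repeat length. The list gene Rasgrp2 stood at 257 CPM in WT striatum at 10 weeks and had 0 counts in every striatal library at 26 weeks, and 14 genes that averaged 10 CPM or more in the 10-week table, none of them a member, had 0 in all 26-week libraries, so the tables may not have been counted alike for every gene. The difference of log2 effects was largest for Gpr6, -3.48 ± 0.36 (adjusted p = 3.92e-06), followed by Tac1, -2.09 ± 0.25 (adjusted p = 1.98e-05), whose fall was seen at the later age only. It was -1.96 for Pdyn, -1.93 for Drd2, -1.89 for Adora2a, -1.87 for Drd1, -1.72 for Penk and -0.77 for Chrm4. Isl1 (-0.29) and Sp9 (0.01) did not pass. The 175QK772T effect passed this test for 1 member, Adora2a, -1.25 ± 0.25 (adjusted p = 0.0422), where 0.132% of all genes were called lower. The differences for Drd1, Tac1, Pdyn, Chrm4, Drd2, Penk and Gpr6 ran from -1.44 to -0.53, each with an unadjusted p below 0.05 and an adjusted p from 0.0719 to 0.177, and DESeq2 called 5 members. The Adora2a call was kept only without 10-week WT replicate 3, 175QK772T replicate 3 or 175Q replicate 2, or 26-week WT replicate 3, 175QK772T replicate 1 or 4 or 175Q replicate 3 or 4, and was otherwise lost, with adjusted p up to 0.14. The count of members called was 7 without 26-week WT replicate 3 or 175QK772T replicate 4, 3 without 10-week WT or 175QK772T replicate 3, 2 without 26-week 175QK772T replicate 1 or 175Q replicate 3, and 0 wherever the Adora2a call was lost. Shares of all genes called in these fits are not given.

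Ratios within a library, which need no scaling between libraries, described how unevenly chosen pairs of a direct and an indirect member moved. They were chosen with the results known and carry no test. Tac1 to Penk, the substance P precursor against the enkephalin precursor, was 0.125 ± 0.002 in WT at 10 weeks (mean ± SD of 4 mice, ratio of CPM), against 0.567 ± 0.024 for 175Q and 0.451 ± 0.031 for 175QK772T. At 26 weeks it was 0.140 ± 0.010 in WT, 0.488 ± 0.041 in 175Q and 0.560 ± 0.032 in 175QK772T. The lowest ratio in any mutant mouse, 0.421, was above the highest in any WT mouse, 0.154. Drd1 to Drd2, the receptors of the same pathways, moved far less, from 1.01 ± 0.04 for WT at 10 weeks to 1.18 ± 0.07 for 175Q and 1.11 ± 0.07 for 175QK772T. At 26 weeks this ratio was 1.07 ± 0.07, 1.32 ± 0.23 and 1.18 ± 0.12, with overlap between the groups. Chrm4 to Adora2a at 10 weeks was 0.163 ± 0.003 for WT, 0.213 ± 0.014 for 175Q and 0.206 ± 0.012 for 175QK772T, and 0.180 ± 0.017, 0.563 ± 0.301 and 0.398 ± 0.114 at 26 weeks. The peptide pair thus parted further than the dopamine receptor pair in these libraries. Chrm4 to Adora2a, a receptor pair, parted too, with no mutant mouse inside the WT range of its age. Its 26-week 175Q mean holds replicate 4 at 1.01, where the other 175Q mice were at 0.353 to 0.463.

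Isl1 is also a gene of cholinergic interneurons, and their defining gene Chat, choline acetyltransferase, fell in 175Q striatum at both ages (-1.61 ± 0.10, adjusted p = 1.31e-07, at 10 weeks and -1.97 ± 0.23, adjusted p = 2.33e-05, at 26 weeks). The ratio of Isl1 to Chat at 10 weeks was 0.495 ± 0.068 for WT, 1.84 ± 0.16 for 175Q and 1.79 ± 0.33 for 175QK772T, and 0.656 ± 0.038, 2.62 ± 0.29 and 1.82 ± 0.26 at 26 weeks. Between genotypes Isl1 was not called lower in 175Q where Chat fell. The ratio rises when Chat alone falls, and no mutant mouse overlapped its WT range. Over the 4 cholinergic markers (Chat, Slc5a7, Slc18a3 and Lhx8), 3 fell in 175Q at each age, where 16.6% and 22.6% of all genes were called lower. The summed level of the 4 was 92.9 to 108 CPM in WT and 37.2 to 50.8 in 175Q at 10 weeks, and 53.1 to 95.9 and 17.7 to 26.7 at 26 weeks. Their part in the Isl1 result was not tested.

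**Figure D3:**
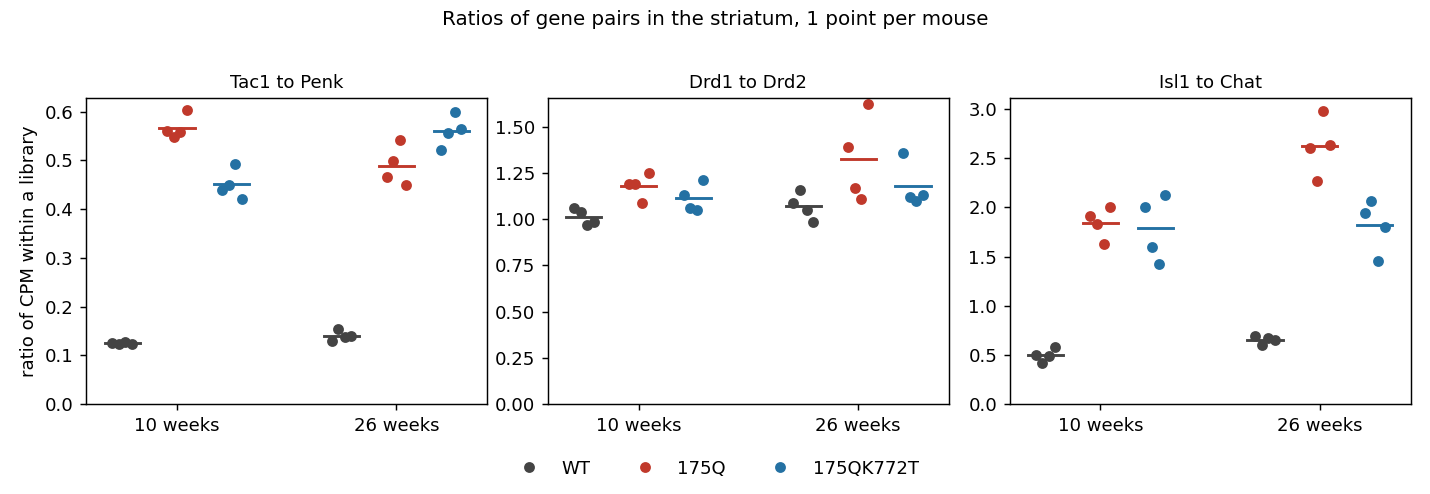
Ratios of CPM within each striatal library, with 1 point per mouse and 1 bar per group mean. Tac1 to Penk lies at 0.123 to 0.154 in all WT mice and at 0.421 or above in all mutant mice, whereas Drd1 to Drd2 overlaps between genotypes at 26 weeks.

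The other genes of these neurons, from lists chosen with earlier results known, put the members in their pathway. Of 12 genes of the signalling chain that both kinds of projection neuron share, all 12 fell in 175Q and all 12 in 175QK772T at 10 weeks, with medians of -1.26 and -0.97 on the log2 scale. Over all genes, 16.6% and 10.3% were called lower there. At 26 weeks, where 22.6% and 12.4% of all genes were called lower, the 11 of these signalling genes tested fell in each, with medians of -2.59 and -1.73. Of these 11, 10 were higher in 175QK772T than in 175Q, where 7.28% of all genes were called higher. Examples are Adcy5, the adenylyl cyclase that both dopamine receptors act on (-1.46 ± 0.10 in 175Q at 10 weeks, adjusted p = 4.35e-07, and -2.59 ± 0.13 at 26 weeks, adjusted p = 2.79e-08), and Pde10a, the phosphodiesterase that removes its product (-1.69 ± 0.11, adjusted p = 1.76e-07, and -2.86 ± 0.16, adjusted p = 6.98e-08). Rasd2, a small G protein of these neurons, fell by 1.44 at 10 weeks and by 3.42 at 26 weeks. Receptors of the member peptides fell in 3 of 4 cases at each age in 175Q. Oprd1, the delta opioid receptor that enkephalin binds, changed by -1.60 ± 0.11 at 10 weeks (adjusted p = 4.47e-07) and -2.80 ± 0.15 at 26 weeks (adjusted p = 4.21e-08). Oprk1, the kappa receptor of dynorphin, changed by -1.42 and -2.10, and Tacr1, the substance P receptor, by -1.28 and -2.04. Oprm1, the mu receptor, had 0.38 and -0.17 and did not pass at either age.

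Further genes linked to each pathway did not move as a block with the members. Of 5 other direct pathway genes, 2 rose and 1 fell in 175Q at each age. Over all genes, 16.6% fell and 3390 of 20998 rose at 10 weeks, and 22.6% fell and 4479 of 19692 rose at 26 weeks. Slc35d3, a carrier needed for D1 receptor traffic, fell by 0.56 at 10 weeks and 2.08 at 26 weeks (adjusted p = 0.000196 and 2.41e-05). Eya1, a transcriptional cofactor, rose by 0.70 and 0.63 (adjusted p = 0.000254 and 7.02e-05), and Ebf1, a factor of the direct lineage, rose by 0.31 and 0.59 (adjusted p = 0.00883 and 0.0175). Of 4 other indirect pathway genes tested, 2 fell in 175Q at each age. They were Plxdc1 (-1.11 and -1.45, adjusted p = 2.62e-07 and 4.03e-07) and Grik3, a kainate receptor subunit (-0.16 and -0.76, adjusted p = 0.0365 and 0.000146). Six3, a factor of the indirect lineage, had -0.05 and -0.48 and did not pass.

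Immediate early genes, whose RNA follows recent neuronal activity, also differed. In 175Q striatum 2 of 6 fell at 10 weeks and 5 of 6 at 26 weeks, with medians of -0.34 and -1.63. Over all genes, 16.6% and 22.6% were called lower. Egr1 changed by -0.89 ± 0.10 (adjusted p = 2.58e-05) and -2.08 ± 0.30 (adjusted p = 0.000126), and Arc by -0.71 ± 0.17 (adjusted p = 0.00644) and -2.47 ± 0.46 (adjusted p = 0.000886). At 26 weeks 5 of 6 were higher in 175QK772T than in 175Q, where 7.28% of all genes were called higher. The median in 175QK772T against WT was -0.20.

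Some markers of other cells were called as well. Of all genes, 16.6% were called lower in 175Q striatum at 10 weeks and 22.6% at 26 weeks. Those called higher were 3390 of 20998 and 4479 of 19692. In 175Q striatum all 5 astrocyte markers fell at each age, with medians of -0.42 and -0.69, as did 4 of 5 microglia markers at 10 weeks and all 5 at 26 weeks, with medians of -0.24 and -0.41. Oligodendrocyte markers fell in 3 of 5 cases at 10 weeks and in 1 of 5 at 26 weeks. Other interneuron markers fell in all 6 cases at 10 weeks and in 5 of 6 at 26 weeks, with medians of -0.85 and -0.95. Cortical markers fell in 4 of 8 cases at 10 weeks, where their sums were 188 to 358 CPM in WT, 99.5 to 173 in 175Q and 133 to 458 in 175QK772T, and in 1 of 8 at 26 weeks, where the sums were 225 to 1060, 190 to 490 and 92 to 808. Of 5 choroid plexus markers 1 rose at 10 weeks, where the sum reached 4700 CPM in 175Q replicate 4. Of 6 thalamic and septal markers 1 rose and 1 fell at each age. Lists with 1 marker called in a direction were near or below the shares of all genes. No listed marker of these cell types was at 0 in all mice of a group. The part of these cells in the members' changes was not tested.

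The genes most like a member across the 24 striatal libraries, by Pearson correlation of log2 CPM less each age's mean over 13457 genes, are given as a description, since these libraries share genotypes. For Drd1 they were Pde1b (0.995), Ppp1r1b (0.992) and Ypel2 (0.99), and for Drd2 they were Ppp1r1b (0.997), Pde1b (0.994) and Rgs9 (0.994). For Penk they were Pde1b (0.996), Arpp21 (0.994) and Adcy5 (0.994). For Tac1 they were others, Sv2c (0.973), Syt6 (0.96) and Syndig1 (0.948). Among the members other than Isl1 and Sp9, r ran from 0.649 between Tac1 and Chrm4 to 0.994 between Drd1 and Drd2. It ran from -0.0871 to 0.232 between Isl1 and those 8, from 0.253 to 0.381 between Sp9 and those 8, and was 0.706 between Isl1 and Sp9.

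Outside the striatum the members were at lower levels, and most calls fell on the peptide precursors. In WT mice at 10 weeks Penk stood at 316 TPM in brainstem, 207 in cerebellum, 90.8 in cortex and 57.5 in hippocampus. Drd2 was highest outside the striatum in the brainstem, at 19.6 TPM, and Chrm4 in the cortex, at 53.1 TPM. In 175Q cortex at 10 weeks 5 of 9 members tested were lower, where 38.2% of all genes were called in either direction. Genes called lower numbered 4088 of 20748. Pdyn was at 25.2 to 28.3 CPM in WT and 7.51 to 8.87 in 175Q cortex, with a log2 fold change of -1.67 ± 0.08 (adjusted p = 6.34e-11), a larger fall than in the striatum of the same mice. Penk changed by -1.40 ± 0.08 (adjusted p = 4.85e-10), and Gpr6 (-0.67), Tac1 (-0.31) and Chrm4 (-0.24) also passed. Gpr6 levels were low, with means of 1.3 CPM in WT and 0.82 in 175Q. The Tac1 call was lost without WT replicate 2 or 3 or 175Q replicate 1, 2 or 3 (-0.33 to -0.21, adjusted p up to 0.193), and the Chrm4 call without WT or 175Q replicate 4 (-0.21 and -0.16). In 175QK772T cortex 2 passed, Pdyn (-1.34 ± 0.08, adjusted p = 1.76e-09) and Penk (-1.54 ± 0.08, adjusted p = 4.77e-10), where 25.9% of all genes were called. None of 9 passed between 175QK772T and 175Q in edgeR's test, where 1.05% were called, with 3 members at an unadjusted p below 0.05, 1 called by DESeq2 and 1 called without 175QK772T replicate 2.

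At 26 weeks 6 of 9 members passed in 175Q cortex, 5 lower and 1 higher, where 31.6% of all genes were called. They were Pdyn (-2.25 ± 0.20, adjusted p = 1.77e-05), Penk (-2.32 ± 0.39, adjusted p = 0.00105), Drd2 (-2.07 ± 0.67, adjusted p = 0.0351), Gpr6 (-1.66 ± 0.40, adjusted p = 0.00908) and Tac1 (-1.32 ± 0.19, adjusted p = 0.000459), with Sp9 higher (0.64 ± 0.16, adjusted p = 0.00927). The WT library that stood apart weighed on these values: it held 14.2 CPM of Drd2 where the other WT cortices held 0.727 to 2.18, and 158 CPM of Penk where they held 32.7 to 42.7. Without it the log2 fold changes were -0.82 for Drd2, -1.63 for Penk, -2.43 for Pdyn, -1.92 for Gpr6, -1.08 for Tac1 and 0.53 for Sp9, and 8 of the members passed. The share of all genes called without this library is not given, so counts without it have none beside them. The Drd2 call was lost without 175QK772T replicate 1, 2 or 4 or 175Q replicate 2, 3 or 4, with adjusted p up to 0.12. Gpr6 levels were low, 0.321 to 1.45 CPM in WT and 0.155 to 0.399 in 175Q, and these groups overlapped. In 175QK772T cortex 2 passed against WT, Pdyn (-1.28 ± 0.19, adjusted p = 0.00219) and Penk (-2.15 ± 0.39, adjusted p = 0.00599), where 8.83% of all genes were called. Without that library 6 passed, with Pdyn at -1.46 (adjusted p = 7.83e-08) and Penk at -1.46 (adjusted p = 1.52e-10). Against 175Q only Pdyn passed (0.97 ± 0.20, adjusted p = 0.0252), where 3.46% were called, and 4 members without it. That Pdyn call was lost without any 175QK772T replicate or 175Q replicate 1, 2 or 4 (0.84 to 1.01, adjusted p up to 0.0913).

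In the hippocampus Pdyn, a gene of dentate granule cells there, and Penk again led. At 10 weeks 3 of 9 members were lower in 175Q, Penk (-1.72 ± 0.14, adjusted p = 4.33e-06), Pdyn (-1.57 ± 0.11, adjusted p = 1.07e-06) and Drd2 (-0.48 ± 0.15, adjusted p = 0.0397), where 19.6% of all genes were called. Genes called lower numbered 2086 of 21071. The Drd2 call was lost without WT replicate 1, 2 or 3, 175QK772T replicate 4 or any 175Q replicate, with log2 values from -0.52 to -0.38. In 175QK772T 2 were lower, Penk (-1.52) and Pdyn (-1.09), where 10.8% were called and 1201 of 21071 genes were called lower. Between 175QK772T and 175Q none passed in edgeR's test, where 0.0332% were called. There 2 members had an unadjusted p below 0.05 and DESeq2 called 1. At 26 weeks 8 of 9 passed in 175Q, 7 lower and Sp9 higher, where 40.8% of all genes were called. The lower ones were Penk (-2.40), Pdyn (-2.35), Gpr6 (-1.92), Drd1 (-1.21), Drd2 (-1.18), Tac1 (-0.95) and Chrm4 (-0.48), and Sp9 was higher by 0.61 ± 0.17 (adjusted p = 0.00932). Gpr6 levels were low, with means of 1.58 CPM in WT and 0.417 in 175Q, though these groups did not overlap. In 175QK772T 6 passed, 5 lower and Sp9 higher by 0.65 ± 0.17 (adjusted p = 0.0144), where 19% were called. Among them the Drd1 call (-0.48) was lost without WT replicate 2, 3 or 4 or 175QK772T replicate 1, 2 or 3 (adjusted p up to 0.128), the Drd2 call (-0.69) without WT or 175QK772T replicate 2, 3 or 4 (up to 0.144) and the Sp9 call without WT replicate 1 (0.054). Against 175Q 6 members were higher, from 0.43 for Chrm4 to 1.04 for Penk. There 15.7% of all genes were called and 1759 of 19809 were called higher. The number of members was 3 without 175QK772T replicate 2, where Penk, Pdyn and Gpr6 were lost. The Gpr6 call was also lost without 175QK772T replicate 4 or 175Q replicate 3 or 4, and the Pdyn call without 175QK772T replicate 3 or 175Q replicate 3 or 4 (adjusted p up to 0.107 and 0.0753).

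In the hindbrain few members passed. In 26-week medulla 3 of 9 were lower in 175Q, where 18.5% of all genes were called. Genes called lower numbered 2020 of 19787. Drd2 was at 17.1 to 22.3 CPM in WT, 11 to 12.1 in 175Q and 15.3 to 17.3 in 175QK772T, with a log2 fold change of -0.82 ± 0.08 in 175Q (adjusted p = 5.37e-06), -0.31 ± 0.08 in 175QK772T (adjusted p = 0.0452) and 0.51 ± 0.08 between 175QK772T and 175Q (adjusted p = 0.00207). Penk (-0.43 ± 0.07, adjusted p = 0.000761) and Pdyn (-0.36 ± 0.11, adjusted p = 0.0389) were the others in 175Q. The Pdyn call was lost without WT replicate 1, 3 or 4, 175QK772T replicate 4 or 175Q replicate 1, 3 or 4 (adjusted p up to 0.118), and 5 members passed without 175Q replicate 2. Drd2 was the only member called in 175QK772T against WT, where 2.08% were called, a call kept only without WT replicate 4 or 175Q replicate 1 or 2 and otherwise lost, with adjusted p up to 0.148. Drd2 and Penk (0.28) were called against 175Q, where 9.46% were called. The Penk call was lost without 175QK772T replicate 1, 3 or 4 or 175Q replicate 1, 3 or 4 (adjusted p up to 0.0821), and 4 members passed without 175Q replicate 2. In 10-week brainstem none of 10 members passed in edgeR's test in 175Q (2.93% of genes called), in 175QK772T (0.0331%) or between them (0.0568%), with 3, 3 and 0 members at an unadjusted p below 0.05 and 2, 0 and 0 called by DESeq2. In 175Q 1 member passed without WT replicate 3 or 175QK772T replicate 3, and 2 without 175QK772T replicate 2. In cerebellum none of 7 tested passed in edgeR's test at 10 weeks, where 11.4%, 4.04% and 1.19% of genes were called in the same 3 comparisons, or at 26 weeks, where 3.01%, 0.298% and 0.0992% were called. The members at an unadjusted p below 0.05 numbered 2, 1 and 0 at 10 weeks and 1, 1 and 0 at 26 weeks, and DESeq2 called 0 at 10 weeks and 1, 1 and 0 at 26 weeks. At 26 weeks edgeR called 0 in each comparison without any 1 library, those with high mitochondrial counts included. In 175Q at 10 weeks 1 member passed without WT replicate 3.

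**Figure D4:**
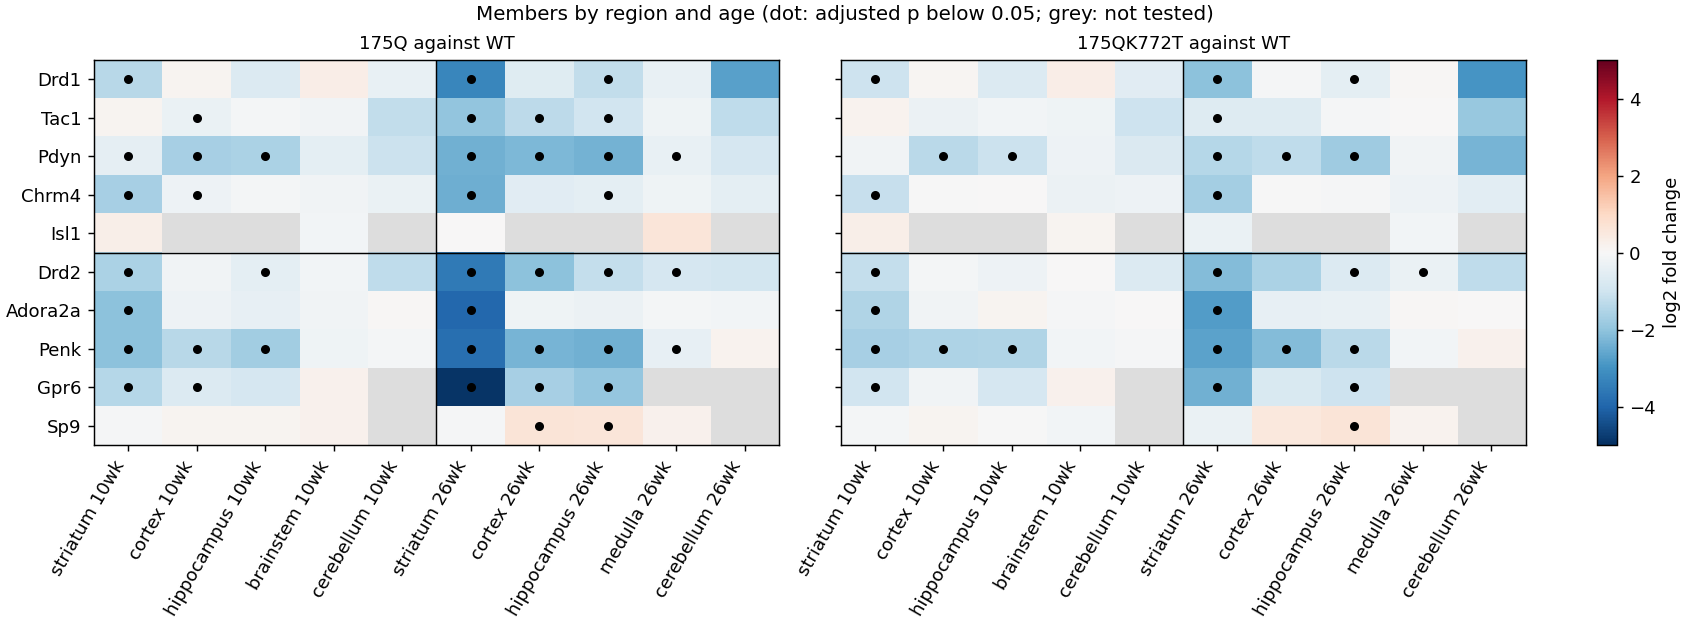
Log2 fold change of each member in each region and age for 175Q (left) and 175QK772T (right) against WT, with a dot where the adjusted p is below 0.05 and grey where the gene was not tested. The deepest falls are in the striatum at 26 weeks, down to -4.89 for Gpr6, and Pdyn and Penk are called in cortex and hippocampus at both ages in both genotypes.

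The difference between striatum and cortex was tested within the same mice as an interaction. At 10 weeks the 175Q effect differed for 8 of 10 members, where 14.7% of all genes were called. The fall was larger in striatum for Adora2a (-1.80 ± 0.15, adjusted p = 1.25e-06), Drd1 (-1.53), Drd2 (-1.44), Chrm4 (-1.42), Gpr6 (-0.76) and Penk (-0.66). It went the other way for Pdyn (1.21 ± 0.10, adjusted p = 1.37e-06) and Tac1 (0.41 ± 0.10, adjusted p = 0.0137), the direct pathway peptides. The Gpr6 call was lost without 175Q replicate 1 or 3 (adjusted p up to 0.0542) and the Tac1 call without WT replicate 2 (0.0567). The 175QK772T effect differed for 7, where 9.31% were called: Adora2a (-1.32), Chrm4 (-1.17), Drd1 (-1.15), Drd2 (-1.08) and Gpr6 (-0.83) with the larger fall in striatum, and Pdyn (1.14) and Tac1 (0.50) with the opposite sign. At 26 weeks 5 differed in 175Q, where 6.98% were called: Adora2a (-3.74), Gpr6 (-3.20), Drd1 (-2.71), Chrm4 (-1.98) and Penk (-1.67). The Penk call was lost without WT replicate 2 or 4 or 175Q replicate 1, 3 or 4 (adjusted p up to 0.0659). In 175QK772T 4 differed, where 2.15% were called: Adora2a (-2.38), Drd1 (-2.07), Chrm4 (-1.76) and Sp9 (-0.89). Without the mouse whose WT cortex library stood apart, 6 and 4 members differed at 26 weeks, Drd1 by -2.19 and -1.54, and the Sp9 call was lost (-0.71, adjusted p = 0.0554). The number called in 175QK772T fell to 1 without 175QK772T replicate 1, 2 or 3 and to 2 without WT replicate 2 or 4 or 175Q replicate 1, 2 or 3. Of these calls, that of Drd1 was lost without any library but WT replicates 1 and 3 (adjusted p up to 0.156), that of Sp9 without any but WT replicate 3, 175QK772T replicate 4 and 175Q replicate 4 (up to 0.157), and that of Chrm4 without 175QK772T replicate 1, 2 or 3 (up to 0.0817).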

How the data were processed

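The authors deposited 2 tables of whole-number counts per gene, 1 for each age, with 120 sample columns; 0 columns could not be mapped to a sample. Per the submitters' processing notes, the tools were bcl2fastq 2.20.0, Trimmomatic 0.33, HISAT2 2.1.0 and featureCounts of Subread 1.6.2, on GRCm38. From the deposited counts, CPM with TMM factors (within a region and age), TPM and log2 fold changes were computed here. Each region and age was fitted over its 3 genotypes with sex as a covariate in edgeR 4.0.16 (limma 3.58.1, R 4.3.3), by the quasi-likelihood test with Benjamini-Hochberg adjustment over all genes tested and a threshold of 0.05. Genes were filtered with edgeR's filterByExpr by genotype. Likeness used the log2 of CPM with 2 added to each value, less each age's mean. It covered genes tested at both ages with a mean of at least 1 CPM in both. Differences between ages, and between striatum and cortex of the same mice, were interaction terms. The fit was tested on simulated data.

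The members and lists were chosen with earlier results of these data known. Named genes were all 10 members, up to 4 genes of each list with the smallest adjusted p of 175Q against WT in the striatum of that age, and the 3 genes most like Drd1, Tac1, Drd2 and Penk, without members and unnamed gene models. Of 86 listed genes 85 matched a symbol; Gpr52 did not. Rasgrp2 had 0 counts in all striatal libraries at 26 weeks, so 11 of its list of 12 were tested there. Totals in the striatum, 77061358 to 93146278 counts at 10 weeks and 28650608 to 57281437 at 26 weeks, set the precision of each value. Alternatives were DESeq2 1.42.0, RLE factors, a replicate block, a fit without sex, a fit of unfiltered genes and leaving out each mouse. Scaling by library size alone, and leaving out the striatal libraries of highest and lowest cortical marker sum, were chosen after seeing the data.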

Additional observations from a re-analysis of the deposited data

Results flagged for a closer look

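Each member was looked at in each group of 4 mice where its mean was at least 1 CPM, giving 225 pairs of member and group. In 18 of these pairs, 1 mouse lay farther from the others than Dixon's 95% limit allows. Chance gives about 1 in 20 for a single pair, but the pairs share libraries, so their total cannot be set against it. None was in the striatum. The 26-week cerebellum of WT replicate 1 was high in Drd1 (9.24 CPM), Tac1 (15.8), Pdyn (5.03), Chrm4 (3.55), Drd2 (7.25) and Adora2a (6.17). The 26-week cortex of WT replicate 1 was high in Drd2 (14.2 CPM) and Penk (158). Other values past the limit at 10 weeks were Pdyn in brainstem of 175Q replicate 1 (6.46 CPM), Chrm4 in cortex of WT replicate 2 (19.4) and 175QK772T replicate 2 (18.15), and Drd2 in cerebellum of 175QK772T replicate 1 (2.71). At 26 weeks they were Chrm4 in medulla of 175QK772T replicate 1 (1.83), Adora2a (4.53) and Penk (153.6) in cerebellum of 175Q replicate 4, the library with 13.5% mitochondrial counts, Adora2a in hippocampus of WT replicate 3 (3.75), Penk in medulla of 175QK772T replicate 2 (156.1) and Penk in hippocampus of 175Q replicate 4 (11.8).

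Effects that differed between ages in striatum, as log2 differences of 26 minus 10 weeks in 175Q, were -3.48 for Gpr6, -2.09 for Tac1, -1.96 for Pdyn, -1.93 for Drd2, -1.89 for Adora2a, -1.87 for Drd1, -1.72 for Penk and -0.77 for Chrm4, and in 175QK772T -1.25 for Adora2a. Effects that differed between striatum and cortex at 10 weeks in 175Q were -1.80 for Adora2a, -1.53 for Drd1, -1.44 for Drd2, -1.42 for Chrm4, -0.76 for Gpr6, -0.66 for Penk, 0.41 for Tac1 and 1.21 for Pdyn. In 175QK772T at 10 weeks they were -1.32 for Adora2a, -1.17 for Chrm4, -1.15 for Drd1, -1.08 for Drd2, -0.83 for Gpr6, 0.50 for Tac1 and 1.14 for Pdyn. At 26 weeks in 175Q they were -3.74 for Adora2a, -3.20 for Gpr6, -2.71 for Drd1, -1.98 for Chrm4 and -1.67 for Penk, and in 175QK772T -2.38 for Adora2a, -2.07 for Drd1, -1.76 for Chrm4 and -0.89 for Sp9.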

How the results depend on the processing

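Of 2856 recomputed values of single genes, 2598 kept direction and side of the threshold, 171 lost a call, 61 gained one and 26 changed sign. Sign changes touched values near 0 that had no call. Leaving out 1 mouse at a time, Sp9 in 175Q against WT ran from -0.123 to 0.0162 at 10 weeks and from -0.144 to 0.0418 at 26 weeks, and its age difference from -0.083 to 0.108. Isl1 in 175Q at 26 weeks ran from -0.0728 to 0.192. Between 175QK772T and 175Q at 10 weeks, Isl1 ran from -0.215 to 0.0605, Sp9 from -0.171 to 0.0222 and Tac1 from -0.068 to 0.129. Under library size scaling Sp9 in 175Q was 0.054 at 10 weeks and 0.134 at 26 weeks, and Isl1 in 175Q at 26 weeks was -0.0987 without the libraries of highest and lowest cortical marker sum.

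Numbers of members called moved as follows, with no share of all genes called given for these fits. Without the low-count filter they were 5 (direct, 175QK772T against WT) and 3 direct and 4 indirect (175QK772T against 175Q) in 10-week striatum, and 9 for the 175QK772T age difference. In other regions without the filter, 175Q against WT gave 3 in cerebellum, 2 in brainstem and 5 in hippocampus at 10 weeks and 1 in cerebellum and 5 in medulla at 26 weeks. The same filter change gave, for 175QK772T against WT, 2, 1 and 4 at 10 weeks, and 5 in cerebellum, 2 in medulla and 5 in cortex at 26 weeks. Against 175Q it gave 2 in cortex and 1 in hippocampus at 10 weeks and 4 each in medulla and cortex at 26 weeks. DESeq2 gave 4 indirect members for 175QK772T against 175Q in 10-week striatum and 5 for its age difference. In other regions DESeq2 gave 2 in brainstem (175Q), 1 each in cortex and hippocampus at 10 weeks (against 175Q), 1 and 1 in cerebellum at 26 weeks (against WT), and 5 against WT and 2 against 175Q in 26-week cortex. RLE factors gave 1 in brainstem. Without the sex term, and under library size scaling, 0 were called in 175QK772T medulla against WT, and 0 direct members between 175QK772T and 175Q in 10-week striatum under that scaling.

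Under the replicate block, 0 direct and 0 indirect members were called between 175QK772T and 175Q in 10-week striatum, 0 in cortex at 26 weeks, and 0 against WT and 1 against 175Q in medulla; other numbers of members called stayed within 1.5 times. Mice with the same number did not deviate together (correlations from -0.529 to 0.456), so the numbers were not taken to pair mice. Leaving out 1 mouse at a time, numbers called ranged from 0 to 1 (direct) and 0 to 3 (indirect) between 175QK772T and 175Q in 10-week striatum, from 0 to 7 for the 175QK772T age difference and from 1 to 5 for its difference between striatum and cortex at 26 weeks. In other regions they ranged from 0 to 1 in 10-week cerebellum and 0 to 2 in brainstem (175Q), 0 to 1 in 10-week cortex (against 175Q), 2 to 5, 0 to 1 and 1 to 4 in medulla, 2 to 6 and 0 to 4 in 26-week cortex (175QK772T against WT and 175Q), and 3 to 6 in 26-week hippocampus (against 175Q). Library size scaling moved the median log2 fold change over all genes in 175Q against WT from 0.00747 to 0.126 at 10 weeks. At 26 weeks it moved from -0.00423 to 0.188. The share of calls that were higher moved from 49.3% to 73.9% and from 50.2% to 73%. In 175QK772T that share moved from 45.8% to 74.2% and from 46.7% to 72.4% against WT, and at 26 weeks from 53.6% to 28.1% against 175Q. The causes were not tested.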
